A study of Caenorhabditis elegans with 4 samples.

Results

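The C-type lectin genes of Caenorhabditis elegans, a free-living nematode, carry names that begin with clec and form 1 of the larger gene families of the worm. They were taken here as every locus of the authors' deposited table with such a name, which gave 121 of 16562 loci and 124 gene names. Most loci held 1 gene, while 3 joined a pair of clec genes and 6 joined a clec gene with another kind of gene, so that their values cannot be separated. The reference gene table (assembly WBcel235) names 264 clec genes, 25 of them pseudogenes, and 123 of the 124 names matched it. The 141 reference genes without a row under their clec name were not analysed here, apart from 3 that the deposited table lists by sequence name. All worms were wild type, labelled L4 (the last larval stage), and grown at 20 °C on plates of the Escherichia coli strain OP50. RNA from whole animals was sequenced from 2 control samples and from 2 samples given 1 mM MAHMA NONOate, a compound that releases nitric oxide (NO) in solution, with 4 h of recovery at 20 °C. The series was designed to set NO-treated worms against untreated ones, but the labels give both groups the same treatment text, so how control worms were handled is not stated.

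A C-type lectin-like domain is a protein fold that, in its best known members, binds sugars with the help of calcium. Many worm clec genes are expressed in the intestine and encode proteins with a secretion signal, and their transcripts change with the bacteria the worm meets. Some are known as effectors or reporters of innate immunity, downstream of the p38 kinase PMK-1 and other pathways, while the function of most members is not known.

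The deposited table gave 1 level per condition for each locus, read here as FPKM (fragments scaled by transcript length and library size), with the authors' fold change, test statistic, p-value and adjusted p. Each standard error (SE) below is the one implied by that statistic, and each 95% interval is the log2 fold ± 1.96 SE. With both samples of a group merged into 1 level, neither the depth nor the scatter of single samples can be given. The labels do not state that samples of a group were separate cultures, and the scatter behind the p-values could be technical. Since whole worms were sampled, fewer cells of a type and less RNA per cell cannot be told apart. Intestinal ges-1 (13.8 and 13.1 FPKM in control and NO-treated worms) and elt-2 (14.6 and 15.7 FPKM) and body wall muscle myo-3 (21.4 and 28.2 FPKM) were present in both conditions. Whole worms hold these tissues, so their presence does not check the group or stage labels. Transcripts known for adult onset were abundant in worms labelled L4, with the adult collagen gene col-19 deposited at 2294 and 1808 FPKM and the yolk gene vit-2 at 3032 and 2370 FPKM.

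Of the 121 C-type lectin loci, 1 was called higher after NO, clec-174, and 0 were called lower. A locus that was not called was not thereby shown to be unchanged. The authors' adjusted p under 0.05 called 0.826% of the 121 members higher, where it called 0.386% of all loci higher and 0.0121% lower, and a single call cannot be read as an excess over those shares. At an unadjusted p under 0.05 the deposited test held 3 members higher (clec-174, clec-72 and clec-236) and 3 lower (clec-223, clec-197 and clec-219), or 2.48% each. The same threshold held 2.75% of all loci higher and 0.338% lower. The share on the higher side was thus near that of the whole table, and the share on the lower side was above it. No test was made of that difference, and 2 of the 3 lower members were weakly expressed genes listed at 0 after NO.

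clec-174, a family member of unknown function with 456 coding codons in the WBcel235 annotation, went from 0.299 FPKM in control to 5.29 FPKM in NO-treated worms in the authors' deposited table. Its control level lay below 0.323 FPKM, and the table lists no locus whose larger level is under that value. clec-174 is thus listed only through its level after NO, which was of middling abundance for the family. Its fold and its call carry that selection. In the test of the authors the fold was 17.7 (log2 fold 4.15, SE 0.88, adjusted p = 0.0015), with an interval from 5.35-fold to 58.6-fold. By deposited fold it ranked 11 among the 66 called loci, of which 12 had a control level under 1 FPKM. Its share of the summed family level nonetheless stayed small, at 0.00722% in control and 0.140% in NO-treated worms.

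The next largest log2 ratio among members with a mean of at least 1 FPKM belonged to clec-72, a close neighbour of clec-174 with 1 protein-coding gene between them in the reference order. In the table of the authors, clec-72 was deposited at 1.84 and 5.95 FPKM (log2 fold 1.70, SE 0.61, unadjusted p = 0.00548, adjusted p = 0.489). It was therefore not called, although its interval, from 1.41-fold to 7.44-fold, lay above no change. The pair ended at nearly the same level after NO, from control levels that differed. How the authors' counting divided reads among similar lectin copies is not given in the sources used here. Of the 10 protein-coding genes that flank the pair, 5 on each side, 4 were measured. These 4 were themselves lectin genes, with deposited folds from 0.421 to 1.39, and 0 of them passed an unadjusted p of 0.05.

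**Figure D1:**
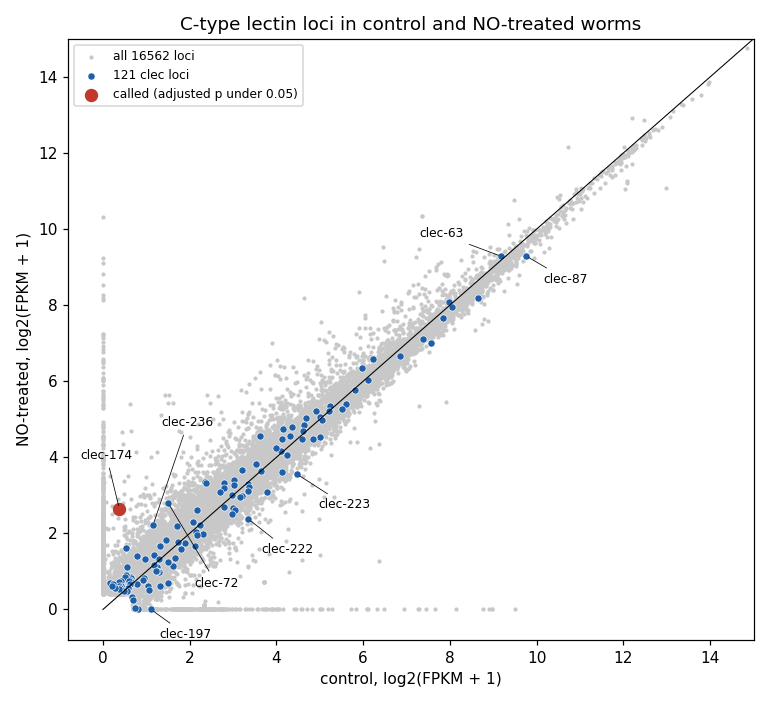
Deposited level of each locus in control (x axis) and NO-treated worms (y axis), both as log2(FPKM + 1), with all 16562 loci in grey, the 121 clec loci in blue and the 1 called clec locus in red; the line marks equal levels. clec-174 stands well above the line, and the abundant clec-87 and clec-63 lie close to it.

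clec-236 also passed an unadjusted p of 0.05 above control, and the authors deposited it at 1.23 and 3.66 FPKM (log2 fold 1.57, SE 0.65, unadjusted p = 0.015, adjusted p = 0.894). Further members with large positive log2 ratios were clec-230, deposited at 0.451 and 2.07 FPKM, clec-3, at 4.15 and 9.18 FPKM, and clec-153, at 4.17 and 9.06 FPKM. Their unadjusted p-values in the deposited test were 0.0698, 0.105 and 0.251, so none of these 3 was called. Of them, clec-230 reached a mean of 1 FPKM only through its level after NO. clec-117 and clec-123, which were more abundant, complete the 8 largest ratios at a mean of at least 1 FPKM. The authors deposited levels of 11.4 and 22.5 FPKM for clec-117 (unadjusted p = 0.0801) and 16.7 and 26.01 FPKM for clec-123 (unadjusted p = 0.101). The functions of these members are not known well enough to state.

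At the other end, the lowest log2 ratios among members with a mean of at least 1 FPKM belonged to clec-222 and clec-223, which are next to each other in the reference order. clec-223, the longest measured member at 1034 coding codons, was at 21.3 FPKM in control and 10.7 FPKM in NO-treated worms in the table the authors deposited (log2 fold -0.99, SE 0.36, unadjusted p = 0.00575, adjusted p = 0.493). For its neighbour clec-222 the authors deposited 9.21 and 4.20 FPKM (log2 fold -1.13, SE 0.59, unadjusted p = 0.0564). Both were at about the same fraction of control, 0.505 for clec-223 and 0.456 for clec-222 in deposited fold, and the adjusted threshold was missed by both. Of the 10 genes that flank this pair, 4 were measured, and these 4 also had deposited folds below 1, from 0.623 to 0.908, with 0 passing an unadjusted p of 0.05.

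The remaining members among the 8 lowest ratios at that minimum level were clec-172, clec-266, clec-4, clec-91, clec-66 and clec-97. Deposited levels were 1.82 and 0.610 FPKM for clec-172 and 1.48 and 0.529 FPKM for clec-266, whose interval, from 0.00938-fold to 13.6-fold, leaves its direction unknown. clec-172 and clec-266 reached a mean of 1 FPKM only through their control level. For clec-4 the authors deposited 12.83 and 7.55 FPKM (log2 fold -0.77, SE 0.47, unadjusted p = 0.107). clec-97 was deposited at 31.3 and 22.1 FPKM. The authors deposited clec-197 at 1.16 FPKM in control (unadjusted p = 0.0433) and clec-219 at 0.749 FPKM (unadjusted p = 0.0479), and both were listed at 0 after NO, so that no fold is given.

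**Figure D2:**
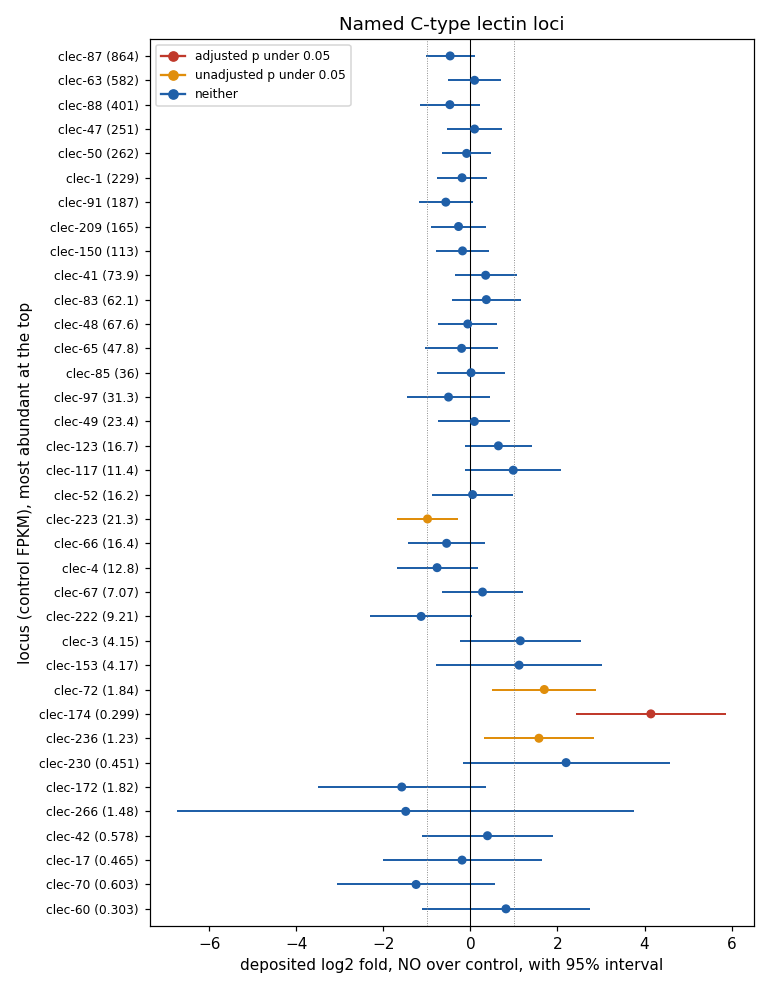
Deposited log2 fold of NO over control (x axis) with its 95% interval for the named clec loci above 0 in both conditions, ordered by mean level with the control FPKM in parentheses (y axis). Dotted lines mark 2-fold changes; intervals are narrow for the abundant loci at the top, clec-174 in red is the 1 called locus, and clec-72, clec-236 and clec-223 in orange passed only the unadjusted threshold.

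A few abundant members supplied most lectin transcripts, and their deposited folds were under 1.5 in either direction. The summed deposited level of the family was 4143 FPKM in control and 3769 FPKM in NO-treated worms, a ratio of 0.910, and made up 0.306% and 0.294% of all deposited FPKM. The 12 most abundant loci held 78.6% and 75.7% of that sum. Among these 12, deposited folds ran from 0.676 to 1.29, with 8 below 1 and 4 above, and the smallest unadjusted p was 0.0728. Their implied SEs, from 0.28 to 0.40 on the log2 scale, were among the smallest in the family.

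clec-87 was the most abundant member, which the authors deposited at 864 and 626 FPKM (log2 fold -0.47, SE 0.29, unadjusted p = 0.107). Much of the difference in the family sum lay in this gene and in clec-88, which shares a locus with K10B2.2 and which the authors deposited at 401 and 289 FPKM (log2 fold -0.47, SE 0.35, unadjusted p = 0.179). Another abundant member, clec-91, had the lowest fold of the 12, and the authors deposited it at 187 and 127 FPKM (log2 fold -0.57, SE 0.32, unadjusted p = 0.0728). The 95% interval of clec-87, from 0.489-fold to 1.07-fold, included no change and left out any rise above 1.07-fold. Beside these, the adult transcripts col-19 and vit-2 had deposited folds of 0.788 and 0.782, and the part of developmental stage in the lectin levels was not tested.

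The other abundant members were closer to their control level. clec-63, reported in C. elegans as an intestinal gene that responds to infection, was deposited at 582 and 622 FPKM (log2 fold 0.10, SE 0.31), which made it nearly equal to clec-87 after NO. clec-47 was deposited at 251 and 268 FPKM, clec-50, an intestinal lectin gene, at 262 and 247 FPKM, and clec-1 at 228.6 and 200.2 FPKM. For clec-50, which had the smallest SE of the family, the deposited test leaves a 95% interval from 0.640-fold to 1.38-fold. clec-209, at 165 and 137 FPKM, and clec-150, at 113 and 100.04 FPKM, were also within 1.5-fold in the deposited table. So were clec-41, at 73.9 and 94.2 FPKM, clec-83, at 62.1 and 79.99 FPKM, and clec-48, at 67.6 and 64.8 FPKM. After NO the order of the 5 most abundant loci in the deposited table was the same as in control except that clec-47 and clec-50 changed places, a difference within their SEs.

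C-type lectin loci were spread over the whole range of abundance. Of the 121 loci, 9 had a mean of both conditions above 100 FPKM, 30 lay at 10 to 100 FPKM, 50 at 1 to 10 FPKM and 32 under 1 FPKM. Lectin loci were thus weaker than most, with a median mean level of 3.69 FPKM against 9.68 FPKM over all loci. A log2 ratio was formed from the NO and control levels with 1 FPKM added to both, which understates changes of weak genes. It had a median of -0.04 over the 89 members with a mean of at least 1 FPKM. Over all 14285 loci with such a mean it was -0.03.

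Within the abundance classes, the median log2 ratio of members was -0.19 above 100 FPKM, 0.06 at 10 to 100 FPKM and -0.04 at 1 to 10 FPKM. The same medians over all loci were -0.14, -0.08 and 0.11. The members at 1 to 10 FPKM were divided, with 24 of 50 above their control level (48.0%), where 61.7% of all loci in that class were above it. At 10 to 100 FPKM the members above control were 17 of 30 (56.7%), against 37.95% of all loci. Above 100 FPKM, 2 of 9 members were above control (22.2%), near the 23.4% of all loci. Whether the 2 middle classes differ from the rest of the table was not tested, and no member of the upper 2 classes was called.

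**Figure D3:**
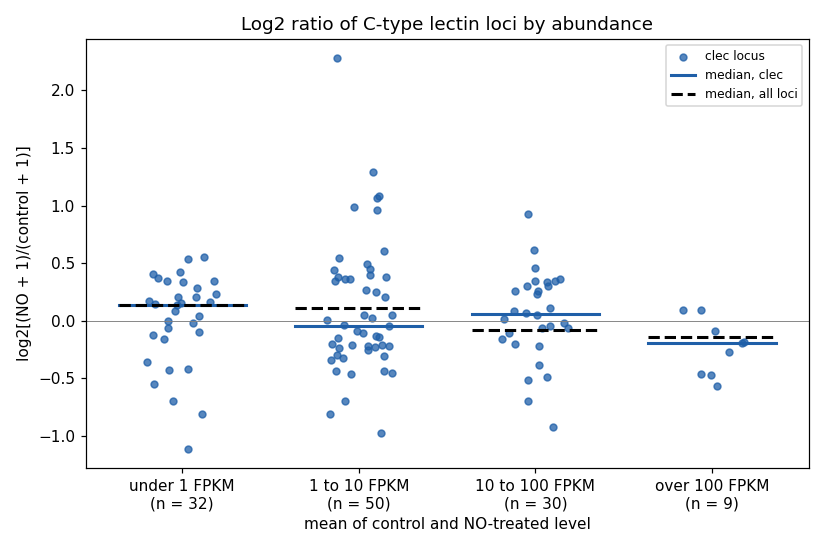
Log2 ratio of the NO to the control level, each plus 1 FPKM (y axis), for each clec locus, grouped by its mean level (x axis), with the median of clec loci as a solid blue line and of all loci as a dashed black line. Median lines lie on opposite sides of 0 in the 2 middle classes, a difference that was not tested. Nothing is read from the class under 1 FPKM, where some loci are listed only through their higher condition.

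The share of members within 1.5-fold of control was slightly below that of the whole table, a difference that was not tested. Of those above 0 in both conditions, 83 (69.7%) had deposited folds within 1.5-fold in either direction, against 76.7% of all loci. These shares include the class under 1 FPKM, which held 26.4% of members and 13.7% of all loci. Of the members, 14 were more than 2-fold higher and 7 more than 2-fold lower, but only 7 and 3 of these had a mean of at least 1 FPKM. No share over all loci is given at 2-fold, so these counts are not read as a trait of the family. Among the 89 with a mean of at least 1 FPKM, 70 were within 1.5-fold (78.7%, against 80.5% of all loci). At 1.5-fold or more, 12 of the 89 were higher and 7 lower, against 2020 and 662 of the 14285 loci with such a mean. A value within 1.5-fold is not the same as a change shown to be small. The whole 95% interval lay within 2-fold for 16 members, which were 6 of the 9 members above 100 FPKM, 9 of the 30 at 10 to 100 FPKM and 1 of the 50 at 1 to 10 FPKM. Over all loci of these classes such intervals made up 65.8%, 38.7% and 2.46%.

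Weakly expressed members carried large errors. The median implied SE of the log2 fold was 0.31 above 100 FPKM, 0.43 at 10 to 100 FPKM, 0.71 at 1 to 10 FPKM and 1.03 under 1 FPKM. An SE over 1.5 was found for 12 members, 10.1% of those with a fold and close to the 10.6% of all loci. The largest was 5.09 for clec-89, deposited at 1.44 and 0.985 FPKM, and even clec-178, at 9.12 and 7.70 FPKM, had an SE of 2.61. The table lists no locus whose larger level is under 0.323 FPKM. A member whose lower level is under that value therefore appears in it only through the condition in which it was higher. No share or median of the weakest members is read as a result. clec-33, at 0.128 and 0.633 FPKM, and clec-207, at 0.657 and 0.0225 FPKM in the deposited table, are members of that kind, with unadjusted p-values of 0.0693 and 0.06135. The called clec-174, at 0.299 FPKM in control, is also listed only through its higher condition.

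Members listed for a role or regulation known in C. elegans, mainly in infection, had 0 calls. At 0.386% of all loci called higher and 0.0121% lower, that is no trait of so short a list. The list held 18 genes, of which 14 were measured; clec-38, clec-39, clec-61 and clec-71 were not analysed here. Of the 14, 8 were above and 6 below control, 0 passed an adjusted or an unadjusted p of 0.05, and the median log2 ratio was 0.03. The unadjusted threshold held 2.75% of all loci higher and 0.338% lower. clec-60, a reporter gene induced by Staphylococcus aureus, was at the edge of detection in both conditions, with deposited levels of 0.303 and 0.533 FPKM (log2 fold 0.82, SE 0.98). clec-70, which also responds to that bacterium, was deposited at 0.603 and 0.254 FPKM (log2 fold -1.25, SE 0.93). These 2 low levels could not show a moderate change, since the interval of clec-60 ran from 0.465-fold to 6.67-fold.

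Among the better expressed immune lectins, clec-85, used as a reporter of the PMK-1 pathway, was deposited at 35.98 and 36.3 FPKM. Its fold of 1.01 had an interval from 0.589-fold to 1.73-fold, so a 2-fold rise would lie outside it. clec-67, another infection-responsive gene, was deposited at 7.07 and 8.58 FPKM and clec-65 at 47.8 and 41.6 FPKM. clec-49, which is needed for normal resistance to Serratia marcescens, was deposited at 23.4 and 24.9 FPKM (log2 fold 0.09, SE 0.42). clec-41, linked to defence against Bacillus thuringiensis, had a deposited log2 fold of 0.35 (SE 0.36), while clec-42, linked to the same defence, was weak at 0.578 and 0.758 FPKM. clec-66 was deposited at 16.4 and 11.2 FPKM, clec-52 at 16.2 and 16.8 FPKM and clec-17 at 0.465 and 0.407 FPKM. Deposited control levels in this list ran from 0.303 FPKM for clec-60 to 582 FPKM for clec-63.

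Lectin genes lie in runs along the chromosomes, and neighbours had deposited folds on both sides of control. With at most 3 other protein-coding genes allowed between them, 160 of the 239 protein-coding reference members fell into 47 neighbour groups, which held 81 measured genes. There were 6 groups with at least 4 measured genes. The run from clec-67 to clec-79, with 7 of 12 genes measured, held clec-174 and clec-72, and 6 of its 7 measured members were above control. Its other members were modest or weak, with clec-73 deposited at 19.4 and 26.95 FPKM, clec-79 at 16.6 and 21.4 FPKM and clec-74 at 0.534 and 0.697 FPKM. The exception was clec-70, the infection-responsive gene given above.

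Each of the 5 loci in the run from clec-80 to clec-85 was above control, with log2 ratios from 0.01 to 0.37 and 0 calls. clec-83 was deposited at 62.1 and 79.99 FPKM, the joined clec-80 and clec-81 at 7.16 and 9.52 FPKM, and clec-84 at 36.7 and 39.8 FPKM. For these 3 loci and clec-85 the deposited log2 folds were smaller than their SEs. That of clec-82, at 0.328 and 0.683 FPKM, was 1.06 with an SE of 0.98, and the interval included no change. The longest measured run, from clec-25 to clec-33 with 10 of 13 genes measured, was weakly expressed and had 0 calls. Its best expressed genes were clec-26, deposited at 3.24 and 3.90 FPKM, clec-36, at 2.47 and 1.98 FPKM, and clec-31, at 1.75 and 2.57 FPKM.

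In the run from clec-62 to clec-66, 2 loci were above and 2 below control, with the abundant clec-63 between weaker neighbours such as clec-62, deposited at 28.9 and 35.9 FPKM. From clec-165 to clec-170 the split was 3 above and 1 below, and log2 ratios ran from -0.05 to 0.40. From clec-57 to clec-55, 3 of the 4 loci were below control, with log2 ratios from -0.23 to 0.00166. The joined locus of clec-227 and clec-56 was deposited at 44.3 and 37.8 FPKM. Smaller groups were found on either side. clec-97, clec-98 and clec-99 were all below control in the deposited table, as were clec-197, clec-198 and clec-199. Both members were above control in the pairs clec-2 and clec-3, clec-151 and clec-153, and clec-229 and clec-230. The group of clec-245, clec-246 and clec-42 was split, with 1 above and 2 below. Several of these members were weak, and clec-98 had an SE of 2.01. How far neighbouring lectins share reads was not tested, so agreement in sign between them is not independent evidence.

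**Figure D4:**
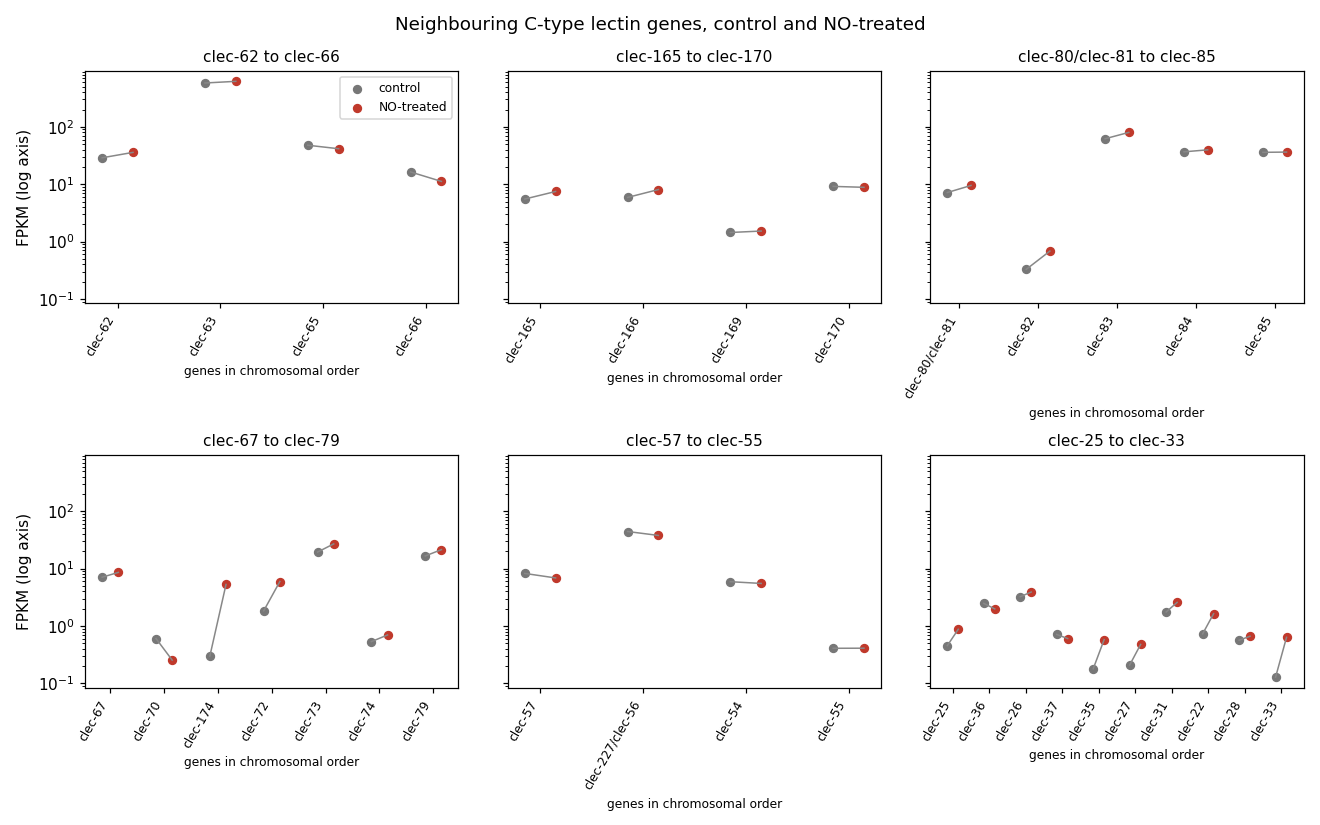
Deposited level in FPKM (log y axis) of neighbouring clec loci in control (grey) and NO-treated worms (red), for the 6 neighbour groups with at least 4 measured genes, in chromosomal order along each x axis. Among these groups clec-174 shows the steepest climb, from 0.299 to 5.29 FPKM, and other members of its group, such as clec-73, have smaller folds.

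Of other sugar-binding proteins and the immune pathway genes listed, 0 were called, and with 0.386% of all loci called higher and 0.0121% lower, lists of this size would hold few or no calls at the shares of the whole table. An unadjusted p under 0.05 held 2.75% of all loci higher and 0.338% lower, so few or no genes of such lists would pass it at those shares. Galectins, which bind galactose-containing sugars through a different fold and are named lec in the worm, had 11 of 12 genes measured. Their deposited folds ran from 0.923 to 1.26, 0 passed an unadjusted p of 0.05, and the median log2 ratio was -0.03. The most abundant, lec-6 and lec-1, were deposited at 552 and 599.9 FPKM and at 549.8 and 592 FPKM. Galectin transcripts thus kept to a narrower range of folds than the C-type lectins, but they were also fewer and far more abundant. A range widens with the number of genes, and no test of the difference was made.

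The 16 regulators of lectin and immune effector genes had 0 calls and a median log2 ratio of 0.13. Only 1 passed an unadjusted p of 0.05, zip-2, a transcription factor gene of the response to Pseudomonas aeruginosa, which the authors deposited at 121 and 182 FPKM (log2 fold 0.59, SE 0.30, unadjusted p = 0.0498, adjusted p = 0.99994). With 2.75% of all loci higher at that threshold, 1 of 16 is not read as an excess. Of the kinase cascade, sek-1 was deposited at 30.5 and 29.6 FPKM and pmk-1 itself at 17.5 and 18.5 FPKM (log2 fold 0.08, SE 0.45). tir-1 had an SE of 23.7, so its change is unknown, and atf-7, the transcription factor of the pathway, shares a locus with the abundant cct-5. Transcript levels say nothing of kinase activity.

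Of 11 other immune effector genes listed as PMK-1 targets, 9 were measured, 6 above and 3 below control, with 0 passing an adjusted or unadjusted p of 0.05 and a median log2 ratio of 0.25. irg-1, which is better known as a target of zip-2, had the largest fold of them in the table of the authors, 2.01, at 15.7 and 31.5 FPKM (unadjusted p = 0.0755). For irg-5 the authors deposited 27.7 and 43.996 FPKM (unadjusted p = 0.104) and irg-4 at 16.5 and 21.2 FPKM. The pathway reporter T24B8.5 was deposited at 33.6 and 27.8 FPKM, and the lysozyme gene lys-2 at 116 and 122 FPKM.

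Finally, 3 loci that the table lists by sequence name carry clec names in the reference and were left out of the counts above. Whether they are among the 25 clec pseudogenes of the reference is not given here. F10F2.6, now clec-152, was deposited at 2.04 and 3.21 FPKM, F10F2.5, now clec-154, at 0.922 and 1.90 FPKM, and T04A8.3, now clec-155, at 1.43 and 1.80 FPKM. All 3 were above control and 0 were called, with SEs of 1.53, 2.16 and 0.67 on the log2 scale.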

How the data were processed

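Whole-worm RNA of 2 control and 2 NO-treated samples was sequenced. Per the labels' protocols, RNA was extracted with Trizol and made into libraries with an Illumina TruSeq kit; per the submitters' processing notes, the tools included Cufflinks 2.0.5, TopHat2 2.0.2 and R 2.15.2. The sources used here do not give the genome build, annotation or scaling. The authors deposited 1 level per condition, taken as FPKM from the column layout, since the table names no unit. The deposited fold is the ratio of both levels, and the deposited log2 fold and statistic hold a placeholder where a level is 0. The deposited adjusted p-value matched a Benjamini-Hochberg adjustment across all 16562 loci within 3.4e-06.

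The SE is the deposited log2 fold over the statistic. Calls use the authors' adjusted p at 0.05. Replicates had been combined, so no model was fitted and depth is unknown. Reference tables (WBcel235) gave names, coding lengths and gene order only. Protein sequences were not used here, so the planned protein features were not computed. Scripts (Python 3.11.15, pandas 2.3.3) were tested on simulated data.

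Named members were those called or with an unadjusted p under 0.05, the 12 most abundant, the 8 largest and 8 smallest log2 ratios, those at 0 in 1 condition with at least 1 FPKM in the other, genes of known role, and members of groups of at least 4 measured neighbours; others (clec-33, clec-89, clec-178, clec-207, smaller groups) were chosen after their values were seen. Members and lists were chosen with earlier results of these data known. Alternatives were other thresholds, pseudocounts, minimum levels and centrings, and leaving out joined or identical loci.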

Additional observations from a re-analysis of the deposited data

How the results depend on the processing

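The count of 1 called member held at adjusted p thresholds of 0.01 and 0.1, with a minimum fold of 2, without joined loci, after the authors' p-values were adjusted over loci of at least 1 FPKM (adjusted p = 0.00129 for clec-174) and with the 3 sequence-named loci added. The thresholds, the minimum fold and leaving out joined loci could not have changed this count. Nor could the 3 added loci, each with an adjusted p of 0.99994 in the authors' test. clec-174 passes the minimum of 1 FPKM only through its level after NO, so the adjustment over such loci is no separate support for its call. The authors' adjusted p was 0.0015 for clec-174, at a fold of 17.7 and in a locus of its own, and at least 0.489 for every other member. With a minimum mean of 10 FPKM the count was 0, because clec-174 is below that level. The median log2 ratio of the family was -0.04 and ranged from -0.05 without a pseudocount to 0.01 with no minimum level or, chosen after seeing the data, without members whose SE was over 1.5, so its sign is not settled. Medians of galectins, regulators and other immune effectors each moved by less than the median SE of their genes; that of galectins turned from -0.03 to 0.11 when centred within abundance class. With a pseudocount of 0.1, log2 ratios of clec-197 and clec-219, listed at 0 after NO, went from -1.11 and -0.81 to -3.65 and -3.09. No paired analysis was possible because the table combines the replicates, and leaving out single replicates was not run for the same reason. Precision is limited by the SE, whose median over members was 0.68 on the log2 scale.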
